A study of Drosophila melanogaster with 12 samples.

Results

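The comparison described here is that of virgin females from 3 populations of Drosophila melanogaster kept under monogamy with virgin females from 3 populations kept under polygamy. Its members are the 6 female arrays, 3 of each regime, out of 12 arrays in the series, and they were chosen by their titles. The other 6 arrays hold virgin males of the same populations and are used here to describe how each transcript is expressed in males. The populations are independent of each other and had been kept for 65 generations. All flies were virgin, aged 4 days and raised on cornmeal medium, their genetic background is labelled IV, and RNA came from whole flies. Each population gave 1 array per sex, and the spread behind every p-value therefore holds differences among populations as well as errors of an array. How many flies went into an array is not given in the sources used here.

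Under monogamy a female mates with 1 male, so that males do not compete over her and their interests do not conflict with hers over remating. Under polygamy, sperm competition, courtship by several males and sexual conflict continue, and genes expressed in both sexes can be pulled towards the level that serves 1 sex. In an adult female fly much of the RNA comes from the ovary, the fat body that feeds it, the gut and muscle. Transcripts found almost only in males come mainly from the testis and the accessory glands, which makes the level in males a useful key to what a transcript is.

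Each array gave log2 expression values for 16637 transcripts under FlyBase transcript identifiers, of which 44 could be paired with a gene. None of the 26 genes on 4 lists of tissue markers was among them (0 matched), so the labelled sex and tissue were not checked against markers. In whole flies, fewer cells of a type and less RNA per cell cannot be told apart.

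Polygamy female 3 stood apart from the other 5 females. The 3 monogamy females correlated at 0.978 to 0.991 with each other over all transcripts, polygamy females 1 and 2 at 0.969, and polygamy female 3 at 0.683 to 0.781 with the others. The 5th percentile of its values was 5.42, against 4.30 to 4.43 in the others. The comparison is therefore given with all 6 arrays and again without polygamy female 3, and differences are monogamy minus polygamy on the log2 scale throughout.

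With the 6 female arrays fitted alone, no transcript differed between the regimes at an adjusted p under 0.05 (0 of 16637, 0%, limma, smallest adjusted p 0.166). Before adjustment, p was under 0.05 for 3601 transcripts (21.6%), of which 1765 were higher and 1836 lower under monogamy. In 6355 transcripts (38.2%) the 3 monogamy females and the 3 polygamy females did not overlap, with 3857 higher (23.2%) and 2498 lower (15%). In the males of the same populations that number was 1290 (7.75%). The median size of the difference was 0.67 in females and 0.23 in males, and the median spread between arrays of a group was 0.24 in monogamy females, 0.68 in polygamy females, 0.38 in monogamy males and 0.31 in polygamy males (SD, n = 3 each).

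Without polygamy female 3, 9 transcripts passed at an adjusted p under 0.05 (0.0541%, limma), all of them lower under monogamy. The adjusted p was under 0.1 for 3474 (20.9%), 1733 of them higher (10.4%) and 1741 lower (10.5%), and the smallest adjusted p was 0.0483. Before adjustment 5868 (35.3%) had a p under 0.05. With 3 arrays set against 2, no overlap was found in 9665 (58.1%), 5799 of them higher (34.9%) and 3866 lower (23.2%). The median spread of polygamy females 1 and 2 was 0.27 (SD, n = 2), and the median size of the difference was 0.50. The 9 calls lay close to the threshold. No call was made after quantile normalization or cyclic loess within the females or after centring each array on its median (0 in each, smallest adjusted p 0.0504 after centring), against 10 in the fit of 4 groups and 179 with a trended, robust prior. The filter on the dimmest 25% of transcripts, which also gave 0, had itself removed 7 of the 9. None was made without monogamy female 1, 2 or 3 or without polygamy female 1. Without polygamy female 2 there were 255, 10 higher and 245 lower, but polygamy female 1 then stands alone, and the spread in that fit comes from the monogamy females only.

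Large differences ran almost entirely in 1 direction. Without polygamy female 3, 506 transcripts were lower under monogamy by at least 2 on the log2 scale and 7 were higher by as much. At a size of at least 1 there were 2031 lower and 923 higher. With all 6 arrays the numbers were 756 lower and 197 higher at a size of at least 2, and 3022 lower and 2211 higher at 1. In males, 6 were lower and 10 higher at a size of at least 2, and 500 lower and 221 higher at 1. The imbalance of the females at a size of at least 2 was found whichever of the 5 arrays was left out, with 308 lower and 3 higher without monogamy female 1, 652 and 21 without monogamy female 2, 641 and 38 without monogamy female 3, 374 and 15 without polygamy female 1, and 845 and 87 without polygamy female 2.

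These 506 transcripts were graded within each regime. Their median level was 6.80 in monogamy female 1, 8.40 in monogamy female 2 and 8.42 in monogamy female 3, against 11.21 in polygamy female 1 and 9.80 in polygamy female 2. Monogamy female 1 and polygamy female 1 thus formed the ends of the range. The array that was not used to choose them, polygamy female 3, had a median of 10.45, between the other polygamy females.

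Polygamy female 3 did not enter the choice of the 506, but the 3 monogamy females did, and they are also the arrays it is set against here. A set chosen for low monogamy values lies low against any other array, so the share among all transcripts is not the value that no difference would give, and the following is a description. Of the 506 transcripts, 475 (93.9%) lay above all 3 monogamy females in polygamy female 3, and 44.9% of all transcripts did. Above the median female level it was 118 of 121 (97.5%), with 28.3% of all transcripts there, and below the median 357 of 385 (92.7%), with 61.4%.

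Each array was also given a single position. An axis was drawn through all 16637 transcripts from the mean of polygamy females 1 and 2, placed at -0.5, to the mean of the monogamy females, placed at 0.5. The positions of monogamy females 1, 2 and 3 were 0.81, 0.35 and 0.33, against -0.64 and -0.36 for polygamy females 1 and 2, which the axis separates by construction. Polygamy female 3, which was not used, stood at -0.52, on an axis that holds the errors of the 5 arrays that define it. It stood at -0.68 over transcripts above the median level, at -0.43 over those below it and at -0.60 after quantile normalization within the females. On each of these axes it lay between polygamy females 1 and 2.

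The males, centred on the mean of their own regimes, were placed on the same axis. Monogamy males 1, 2 and 3 stood at 0.69, 0.19 and -0.40, against -0.45, 0.30 and -0.33 for polygamy males 1, 2 and 3. The male regimes therefore overlapped on the axis that separated the females. Population 1 of monogamy held the extreme position in both sexes.

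**Figure D1:**
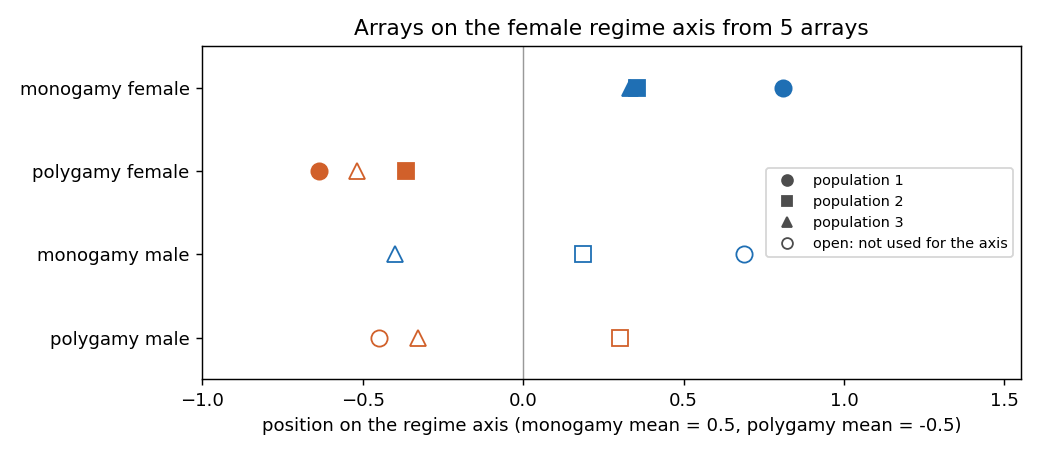
Position of each array (x axis, no unit) on the axis that runs from the mean of polygamy females 1 and 2 at -0.5 to the monogamy female mean at 0.5, with a row for each group. Filled symbols are the 5 arrays that define the axis and open symbols are arrays not used for it. Polygamy female 3, at -0.52, lies among the polygamy females, and the males of the 2 regimes overlap.

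Across the 16637 transcripts, the regime difference of females without polygamy female 3 and that of males correlated at a Pearson r of 0.584 and a Spearman rho of 0.575, with equal signs in 72.8%. With all arrays r was 0.649, with equal signs in 76.8%, and without population 3 of polygamy in both sexes it was 0.438, with equal signs in 65.0%. Transcripts depend on each other, and male and female arrays come from the same populations. Again without polygamy female 3, and without monogamy male 1, the correlation was 0.142 (rho 0.101), with equal signs in 52.3%. It was 0.140 without population 1 of monogamy in both sexes, without population 2 it was 0.530 and without population 3 it was 0.688. Of the 506 transcripts lower in monogamy females, 490 (96.8%) were also lower in monogamy males, against 47.9% of all transcripts, with a median difference of -0.81. Without monogamy male 1 there were 362 (71.5%), against 55.2% of all transcripts, and the median was -0.19. Both values were smaller without that single male array.

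Whether the regime difference of females was other than that of males was tested as an interaction of sex and regime in 1 fit of the 4 groups. No transcript passed with all arrays (0, 0%, limma), with 593 (3.56%) at an unadjusted p under 0.05. None passed without polygamy female 3 either (0, 0%), with 967 (5.81%) at that level and a smallest adjusted p of 0.0501. Without polygamy female 1 there were 7.

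By expression level, the regime difference of females took a different shape with and without polygamy female 3. Transcripts were ranked by their mean over the 6 females and divided into 10 bins of equal size, with bin 1 the lowest. With all 6 arrays the median difference was -0.66 in bin 1, whose median level was 4.90, -0.61 in bin 2 and -0.37 in bin 3. It was 0.09 in bin 4 and lay between 0.21 and 0.31 in bins 5 to 10. Without polygamy female 3 the median was at 0 within rounding in bin 6 and lay between 0.08 and 0.20 in the others, with 0.10 in bin 1 and 0.15 in bin 10.

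The slope moved with a single array and with the scaling. The median of bin 1 less that of bin 10 was -0.87 with all arrays. It was -0.10 without polygamy female 3, with the bins ranked anew on the arrays kept. With all 6 arrays kept it was -0.46 after quantile normalization and -0.054 after cyclic loess, again in bins ranked anew. The values that follow use the bins of all 6 females as deposited. Set against the mean of the other 5 females, polygamy female 3 lay a median of 1.93 higher in bin 1, 1.82 higher in bin 2 and 1.06 higher in bin 3, and differed by -0.52 in bin 6 and -0.54 in bin 7. No other array departed from the rest by more than 0.27 in any bin. Polygamy female 1 differed by -0.21 in bins 8 and 9, and monogamy female 1 lay 0.23 to 0.27 higher in bins 2, 3 and 4.

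**Figure D2:**
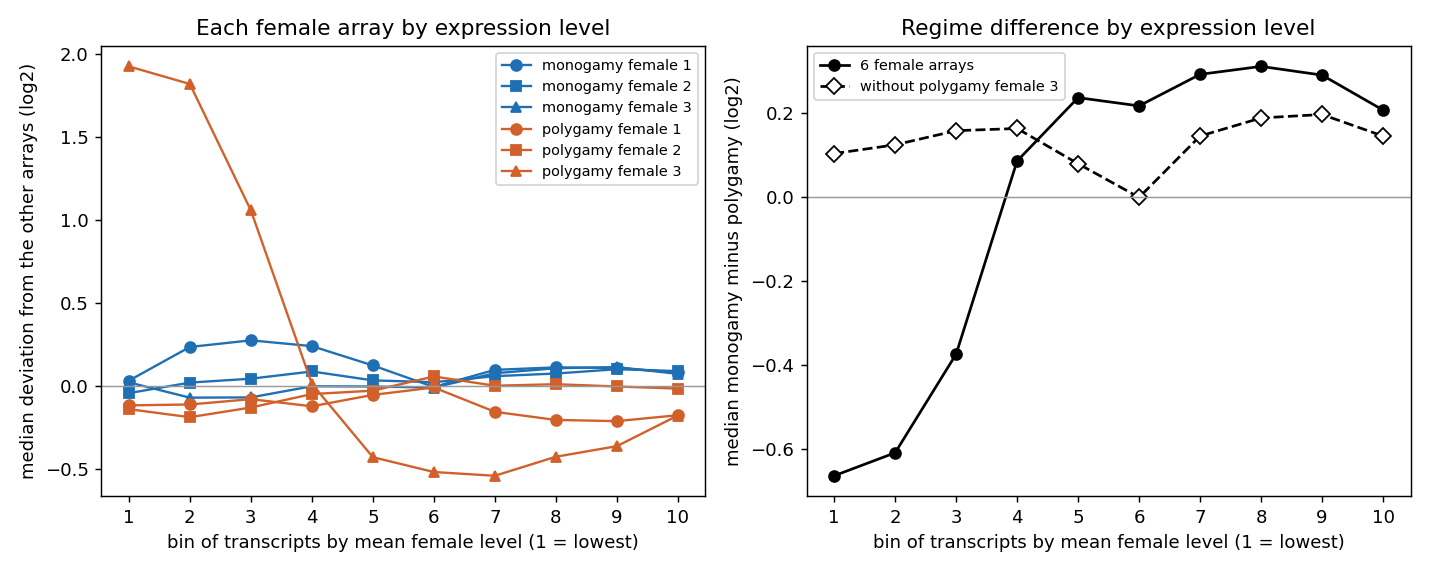
Left, median deviation of each female array from the mean of the other arrays, polygamy female 3 never being part of that mean (y axis, log2), for 10 bins of transcripts ranked by female level (x axis). Right, median monogamy minus polygamy difference by the same bins, with all 6 arrays (filled) and without polygamy female 3 (open). Only the line with polygamy female 3 slopes, with -0.66 in bin 1 and 0.21 in bin 10.

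The difference relative to its spread was most often seen at middle levels. Without polygamy female 3 the share of transcripts at an adjusted p under 0.1 was 8.06% in bin 1, 32.6% in bin 5, 31.1% in bin 6 and 4.75% in bin 10, beside 20.9% of all. The size of the difference followed the same course, with medians of 0.36, 0.67, 0.63 and 0.28. The most abundant transcripts, at a median level of 13.04, thus differed least in size, although 67.2% of them were higher under monogamy, against 57.6% of all transcripts. With all 6 arrays the share higher was 22.2% in bin 1 and 69.7% in bin 10. The balance in bin 6 ran the other way without polygamy female 3, with 221 higher and 297 lower at an adjusted p under 0.1.

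By the level in males, the transcripts that stood apart were those limited to males. Transcripts were put into 7 classes by their mean level in the 6 males less that in the 6 females, so that the female arrays enter both the classes and the difference. In the 1328 transcripts at least 4 higher in males, the median difference of females was -1.02 with all 6 arrays and -0.35 without polygamy female 3, beside 0.06 and 0.14 for all transcripts. In the other 6 classes the medians lay between -0.42 and 0.42 with all arrays, and between -0.02 and 0.27 without polygamy female 3.

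In this male-limited class the arrays of a regime did not agree. Its median level was 5.57, 5.31 and 5.51 in monogamy females 1, 2 and 3, against 5.43, 6.46 and 7.94 in polygamy females 1, 2 and 3, and 11.69 in males. Polygamy female 1 lay among the monogamy females, and polygamy females 2 and 3 above them. Set against polygamy female 1 alone, the class lay -0.071 from the median of all transcripts. For that value the class was drawn anew with the female level taken from the arrays kept. The groups did not overlap in 302 of its transcripts with all 6 arrays, 26 higher and 276 lower under monogamy, which is 22.7% beside 38.2% of all.

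Counts by array differed in the same way. Polygamy female 1 had 62 transcripts of the male-limited class more than 1 above all monogamy females (4.67%, beside 9.33% of all transcripts). Polygamy female 2 had 409 (30.8%, beside 5.88%) and polygamy female 3 had 887 (66.8%, beside 25.1%). Polygamy female 1 was thus below the share of all transcripts and the other two were above it. Those more than 1 below all monogamy females numbered 18, 0 and 30 in polygamy females 1, 2 and 3, which is 1.36%, 0% and 2.26%, beside 5.28%, 1.51% and 23.9% of all. There were 45 transcripts more than 1 above all monogamy females in all 3 polygamy females (3.39%, beside 2.16%), and 0 as far below in all 3 (0%, beside 0.222%).

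The large differences were not a matter of male-limited transcripts alone. Of the 506 transcripts at least 2 lower under monogamy without polygamy female 3, 218 were within 1 between the sexes, 41 were at least 4 higher in males and 105 were 2 to 4 higher in females. As a share of its class this was 8.31% of the transcripts 2 to 4 higher in females, against 3.04% of all transcripts and 3.09% of the male-limited class. In the class 2 to 4 higher in females, 243 transcripts stood more than 1 above all monogamy females in polygamy female 1 (19.2%, beside 9.33% of all transcripts), 91 in polygamy female 2 (7.21%, beside 5.88%) and 423 in polygamy female 3 (33.5%, beside 25.1%). As far below them stood 64, 31 and 218 (5.07%, 2.45% and 17.3%, beside 5.28%, 1.51% and 23.9%). Over all transcripts, 360 stood more than 1 above all monogamy females in all 3 polygamy females and 37 as far below.

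**Figure D3:**
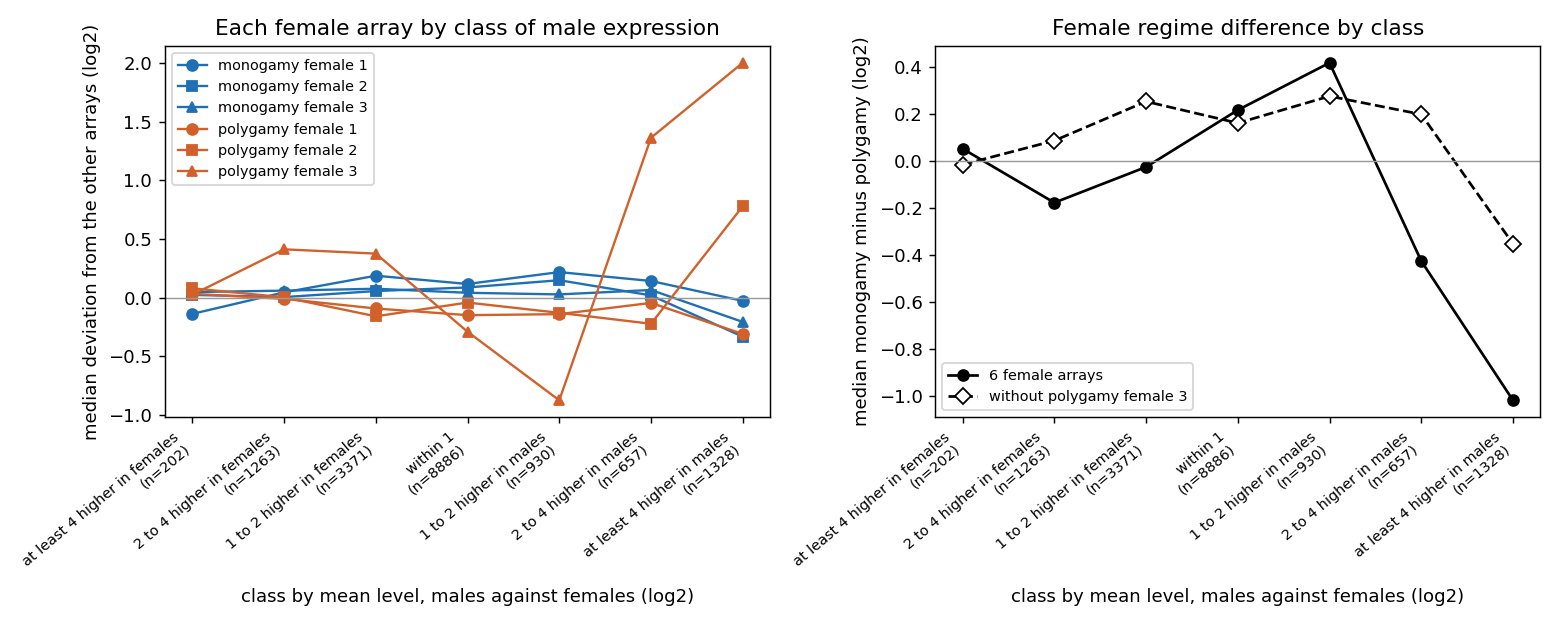
Left, median deviation of each female array from the mean of the other arrays, polygamy female 3 never being part of that mean (y axis, log2), by class of male against female level (x axis, number of transcripts in brackets). Right, median monogamy minus polygamy difference of females in each class, with all 6 arrays (filled) and without polygamy female 3 (open). The class at least 4 higher in males is lowest in both, at -1.02 and -0.35, and polygamy females 2 and 3 are the arrays raised in it.

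Each sex was also divided into 5 bins by its own level. Crossing the level in females with the level in males separates dim transcripts that males express from dim transcripts that neither sex expresses. In the lowest female bin, 1979 transcripts were also in the lowest male bin and 245 were in the highest. The 1979 had a median difference of -0.41 with all arrays and 0.29 without polygamy female 3. The 245 had -1.45 and -0.91, with array medians of 5.61, 5.05 and 5.42 in monogamy females 1, 2 and 3, against 5.33, 7.20 and 7.94 in polygamy females 1, 2 and 3. Polygamy female 1 again lay among the monogamy females. In the fit of 5 arrays, 33.4% of the 1979 were higher and 11.5% lower in every monogamy female than in both polygamy females, and of the 245 none were higher and 24.5% were lower, beside 34.9% higher and 23.2% lower of all transcripts. The shares higher of the 1979 and lower of the 245 were thus near those of all transcripts, while the shares on the opposite side were smaller. Among transcripts in the highest bin of both sexes, 2067 in number, the median difference was 0.27 with all arrays and 0.18 without polygamy female 3. The raised values of polygamy female 3 covered the whole lowest female bin, with medians of 1.61 above the other females where males were also lowest and 2.13 where males were highest.

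**Figure D4:**
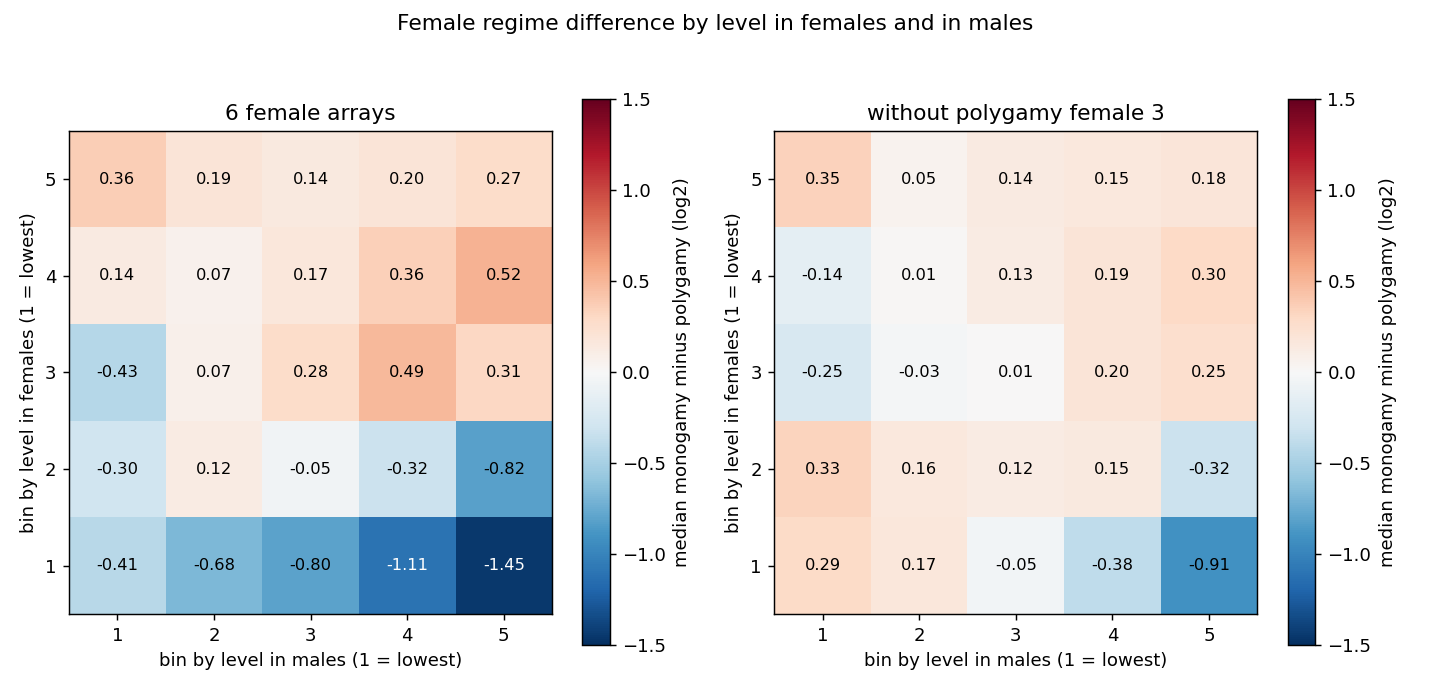
Median monogamy minus polygamy difference of females (colour and printed value, log2) for transcripts in 5 bins of mean level in males (x axis) and in females (y axis), with all 6 arrays on the left and without polygamy female 3 on the right. The cell of low female and high male level is the lowest in both, at -1.45 and -0.91, while the other cells of the bottom row move towards or above 0 on the right.

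The transcripts with the smallest unadjusted p that carried no gene name show both kinds of pattern. FBtr0073671 stood at 3.60, 3.56 and 3.66 in monogamy females 1, 2 and 3, against 7.57, 8.55 and 7.74 in polygamy females 1, 2 and 3, and averaged 12.96 in males. Its difference was -4.35 (SE 0.33, adjusted p = 0.166) with all arrays and -4.46 (SE 0.31, adjusted p = 0.0483) without polygamy female 3, and all 3 monogamy values were under the 5th percentile of the array, which leaves the size uncertain. FBtr0087767, at 13.04 in males, stood at 5.67, 5.85 and 6.28 in monogamy females and at 8.88, 8.72 and 9.18 in polygamy females. Both are dim or near background in monogamy females and raised in each polygamy female.

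FBtr0100343, which is not limited to males (6.71 there), stood at 5.49, 5.50 and 5.84 in monogamy females and at 8.59, 8.29 and 8.13 in polygamy females. It differed by -2.83 (SE 0.23, adjusted p = 0.0483, limma) in the fit without polygamy female 3. Of the 9 transcripts that passed there, 4 were at least 4 higher in males, a class that holds 1328 of all 16637 transcripts. At an adjusted p under 0.1 in the same fit were 11.1% of that class, beside 20.9% of all transcripts. For FBtr0073671, FBtr0087767 and FBtr0100343 without polygamy female 3, the adjusted p (limma) was 0.0504 to 0.284 in every setting that changed the scaling, raised low values, added the replicate block or left out a monogamy female, and 0.0294 to 0.0362 with a trended, robust prior. The differences themselves moved little with the scaling, from -4.72 to -4.35 for FBtr0073671 and from -3.02 to -2.76 for FBtr0087767. With values below the 5th percentile raised to it, that of FBtr0073671 shrank to -3.68. In the fit of 4 groups with all arrays FBtr0087767 had an adjusted p of 0.00181 and FBtr0073671 one of 0.0207, and FBtr0073671 had 0.0122 with array weights, while FBtr0100343 passed in neither.

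Among the unnamed transcripts chosen on the side higher under monogamy, polygamy female 3 crossed over in FBtr0072224 only. FBtr0082669 stood at 8.99, 8.49 and 8.18 in monogamy females, against 6.86, 6.90 and 6.70 in polygamy females, and FBtr0114565 at 6.44, 6.67 and 6.16, against 4.50, 5.13 and 4.79. Neither passed (both adjusted p = 0.186 with all arrays). The 2 with the smallest p without polygamy female 3 had higher values in that array than in polygamy females 1 and 2. FBtr0072224 stood at 7.55, 7.21 and 7.07 in monogamy females and 4.86 and 5.27 in polygamy females 1 and 2. In polygamy female 3 it stood at 8.27, above every monogamy female. FBtr0082861 stood at 9.22, 8.94 and 8.62, against 6.76 and 6.18. In polygamy female 3 it stood at 8.54, just below every monogamy female, and its difference with all arrays was 1.77. Both had an adjusted p of 0.0716 without that array.

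No transcript with a gene name passed at an adjusted p under 0.05 in either fit (0 of 44, limma). Before adjustment p was under 0.05 for 12 with all arrays (beside 21.6% of all transcripts) and 14 without polygamy female 3 (beside 35.3%). At an adjusted p under 0.1 without polygamy female 3 there were 11 of the 44, 3 higher and 8 lower under monogamy, which is near the 20.9% of all transcripts. The groups did not overlap in 20 of the 44 with all arrays, 11 higher and 9 lower, beside 38.2% of all. The 44 are those that could be paired with a gene, 28 of them shared by several genes, and are no sample of a pathway.

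In the group of chromatin and genome maintenance, with 6 transcripts, 4 differences were above 0 and 2 below in each fit. After cyclic loess with all arrays the numbers were 2 and 4. The transcript of kis, a chromatin remodeller of the CHD family, stood at 9.64, 9.65 and 10.02 in monogamy females, against 12.04, 10.48 and 10.86 in polygamy females. The groups did not overlap, and the difference was -1.36 (SE 0.45, adjusted p = 0.196, limma) with all arrays and -1.49 (SE 0.46, adjusted p = 0.0947) without polygamy female 3. In males kis differed by 0.04, and the interaction, -1.39, did not pass (adjusted p = 0.862). HDAC3, a histone deacetylase, differed by 0.62, SuUR, which holds back replication of late-replicating chromatin, by -0.73, and His4r, a histone, by 0.14.

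Among the 7 transcripts of RNA synthesis, processing and modification, 4 differences were above 0 and 3 below in each fit. With all arrays after cyclic loess, 3 were above 0 and 4 below. At an adjusted p under 0.1 without polygamy female 3 there were 4 (beside 20.9% of all transcripts), 2 in each direction. The widest gap of all named transcripts was that of sle, which encodes a nucleolar protein needed for normal brain development. It stood at 7.80, 9.64 and 9.67 in monogamy females, against 13.07, 11.11 and 11.84 in polygamy females. No polygamy value reached the monogamy range, and the spread within each regime was wide, so that the difference of -2.97 (SE 0.71, limma) had an adjusted p of 0.186, and -3.06 (SE 0.78) one of 0.0854 without polygamy female 3. Males differed in the same direction by -1.77.

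The transcript shared by CG42516 and Pbp49, the second of which encodes a subunit of the complex that starts transcription of small nuclear RNAs, stood at 10.20, 11.38 and 10.96 in monogamy females and at 12.89, 11.88 and 13.25 in polygamy females. Its difference was -1.83 (SE 0.49, adjusted p = 0.186) with all arrays. In the opposite direction, the transcript shared by Polr3K, a subunit of RNA polymerase III, and Tcs1 stood at 12.85, 12.47 and 12.57 in monogamy females and at 11.37, 12.18 and 10.42 in polygamy females, a difference of 1.31 (SE 0.48, adjusted p = 0.207). The groups did not overlap in either transcript. That of CG7950 and Rpp14a, a protein of the RNase P family, stood at 12.65, 12.42 and 12.49 in monogamy females and at 11.55, 11.86 and 12.80 in polygamy females. Here polygamy female 3 lay above every monogamy female, and the difference was 0.45 with it and 0.82 (SE 0.21, adjusted p = 0.0854) without it.

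Nutrient transport and the TORC1 growth pathway had 4 transcripts. NaPi-III, a phosphate transporter, stood at 10.34, 11.26 and 10.92 in monogamy females and at 12.20, 12.02 and 11.87 in polygamy females, with no overlap and a difference of -1.19 (SE 0.32, adjusted p = 0.186) with all arrays and -1.27 (SE 0.31, adjusted p = 0.0854) without polygamy female 3. The other 3 lay above 0 without polygamy female 3. Fatp1, which carries fatty acids into cells, differed by 1.35 with all arrays and by 0.59 without polygamy female 3. The difference of mio, a regulator of TORC1, was 1.02 with all arrays and 0.41 without that array, and that of Wdr24 of the same complex was -0.03 and 0.15.

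All 4 transcripts of mitochondria, cofactors and membrane anchors were below 0, in both fits and after quantile normalization, cyclic loess and centring, and 1 was at an adjusted p under 0.1 without polygamy female 3, which for 4 transcripts is near the 20.9% of all. Of all transcripts 52.3% were above 0 with all arrays and 57.6% without polygamy female 3. The transcript shared by CG42497 and Tim10, a chaperone that guides proteins to the inner mitochondrial membrane, stood at 10.79, 12.09 and 11.82 in monogamy females and at 13.59, 12.63 and 13.90 in polygamy females. Every polygamy value lay above the monogamy range, with a difference of -1.81 (SE 0.50, adjusted p = 0.186) with all arrays and -1.54 (SE 0.47, adjusted p = 0.0937) without polygamy female 3. The other 3 were the shared transcripts of Mocs2A and Mocs2B, which make molybdopterin (-1.24), of CG45089 and ND-MNLL, a subunit of respiratory complex I (-0.72), and of Tcs6 and PIG-P, which helps to build glycolipid anchors (-0.60). This list was written with earlier results known, so its common direction depends on which genes were put on it. Shared transcripts left outside it went either way with all arrays. Those of Dpm2 and CG8026 differed by 1.41 and 1.22, and those of PIG-M and Ppcdc by -0.008 and -0.33.

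The matrix and membrane skeleton were represented by LanA, a laminin of basement membranes, and alpha-Spec, a spectrin. LanA stood at 8.87, 9.82 and 9.39 in monogamy females, against 11.50, 9.78 and 11.05 in polygamy females. Polygamy female 2 lay inside the monogamy range, and the difference of -1.42 (SE 0.52) had an adjusted p of 0.209. The value of alpha-Spec, 1.08, was 0.12 without polygamy female 3. Of the ubiquitin system, rdx, an adaptor of a ubiquitin ligase, differed by -1.66 with all arrays and by -1.99 without polygamy female 3, where its adjusted p was 0.0968, and Uba1, the activating enzyme, by 0.84 and 0.27.

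The 21 named transcripts outside these groups divided into 12 above 0 and 9 below with all arrays, and into 9 above and 12 below after cyclic loess. The smallest p of any named transcript belonged to that shared by CG32573 and CG42512, which stood at 11.48, 11.13 and 11.11 in monogamy females and at 9.62, 10.02 and 8.82 in polygamy females. The groups did not overlap, and the difference was 1.75 (SE 0.38, adjusted p = 0.186) with all arrays and 1.42 (SE 0.24, adjusted p = 0.0854) without polygamy female 3. That of lmgA and lmgB stood at 8.17, 8.77 and 8.84 in monogamy females and at 9.31, 9.96 and 8.79 in polygamy females. That of CG45088 and CG6191 stood at 10.56, 11.12 and 11.37, against 12.26, 11.96 and 9.82, so that polygamy female 3 lay below every monogamy female and the difference was -0.32 with it and -1.09 without it. Values of the rest ranged from -1.26 to 1.41 with all arrays.

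**Figure D5:**
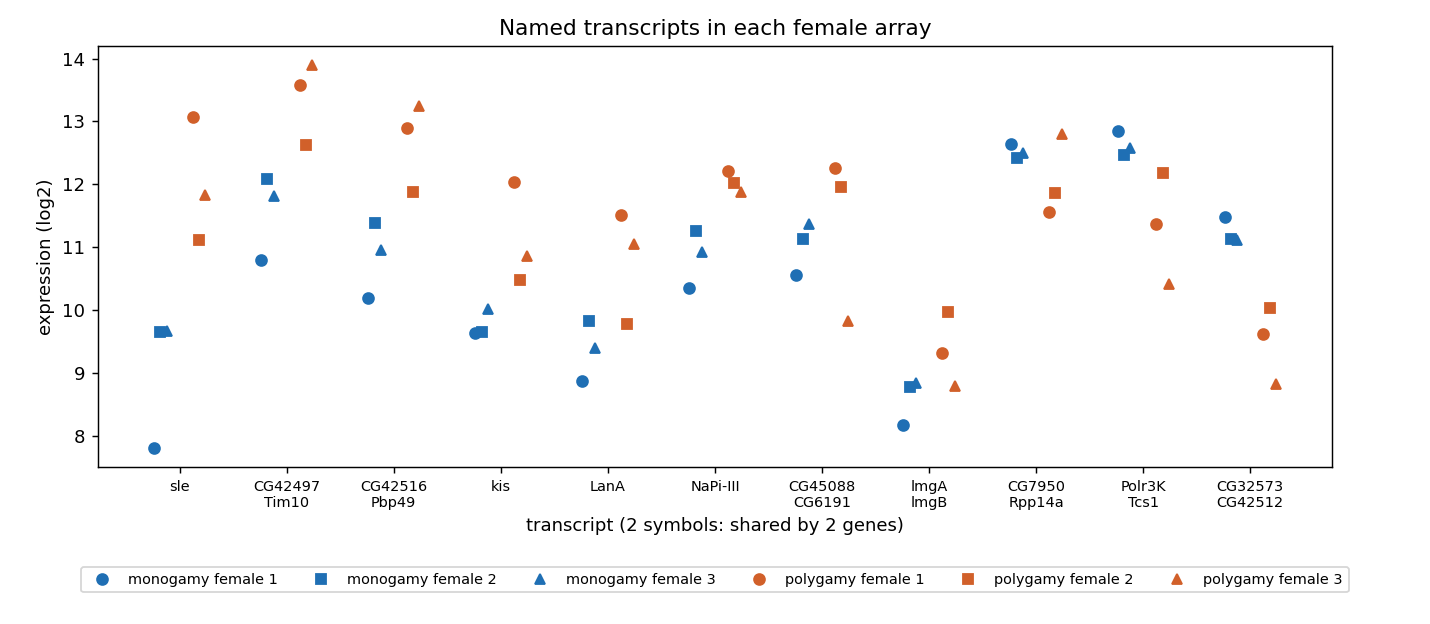
Expression (y axis, log2) of the 11 named transcripts ranked first by p in either fit, in each female array, monogamy left and polygamy right within a transcript, ordered by the difference without polygamy female 3. Symbols mark the population number, which does not pair the regimes. The groups are apart in 7 transcripts with all 6 arrays, among them sle, kis and NaPi-III, beside 38.2% of all transcripts. The 11 were ranked by p in these same arrays, which favours groups that are apart. Polygamy female 3 is the array that crosses over in CG7950/Rpp14a and CG45088/CG6191.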

How the data were processed

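RNA of whole virgin flies was labelled with Cy3 and hybridised to single-colour NimbleGen arrays, 1 array per population and sex, per the labels' protocols. The deposited values are log2 expression values made by the authors with RMA, per the submitters' processing notes, while its version, the annotation and which arrays were normalized jointly are not stated there. RMA corrects background and summarises probes, so values near the bottom of an array carry little information. Arrays have no read depth, and their number limits the precision.

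The values were used as deposited, without a filter or further normalization. Groups came from the array titles. Regimes were compared with limma 3.58.1 in R 4.3.3 (lmFit and eBayes, two-sided, Benjamini-Hochberg over 16637 transcripts, threshold 0.05), on the 6 female arrays alone and again on 5 without polygamy female 3. The interaction used all 12 arrays. The fit was also run on simulated data, in which 100 transcripts were given a true difference of size 1 and 100 one of size 2. With 6 arrays it called 0 of size 1 and 0 of size 2. A count of 0 calls from that fit therefore does not show that differences of these sizes are absent. Without polygamy female 3 it called 5 of size 1, 86 of size 2 and 10 transcripts without a true difference. Level bins, male classes and gene lists were described by medians and counts, without a test.

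Gene symbols came from the RefSeq gene table (assembly Release 6) and matched 44 transcripts, 16 with 1 gene and 28 with several, whose value cannot be given to either gene. Every array's value is given for named transcripts among the 8 smallest unadjusted p in either fit, and for 2 unnamed transcripts per direction and fit. The comparison, the 6 gene lists and these rules were chosen with earlier results of these data known. Alternatives were other scalings, a filter on dim transcripts, a floor, other variance models, a replicate block and leaving out arrays. The large differences and the settings without 2 arrays were added after seeing the data.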

Additional observations from a re-analysis of the deposited data

How the results depend on the processing

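The count of 0 calls with all 6 female arrays was 0 at an adjusted p under 0.1 and 3601 at an unadjusted p under 0.05. It was 1 with array weights, 10 in 1 fit of 4 groups, 0 to 9 when each array was left out in turn (9 without polygamy female 3), and 255 when polygamy female 1 stood alone, a fit whose spread comes from the monogamy females only. The 9 calls without polygamy female 3 became 0 under both quantile normalizations, cyclic loess, centring, the filter on dim transcripts and the floor at the 5th percentile. The count became 1 with array weights, 10 in the fit of 4 groups and 179 with a trended, robust prior. Those 10 were 1 higher and 9 lower under monogamy, and FBtr0100343 was not among them. The count was 3474 at an adjusted p under 0.1 and 5868 at an unadjusted p under 0.05. It was 0 with monogamy female 1, 2 or 3 or polygamy female 1 left out as well. With the replicate number as a block both fits gave 0 calls, as did the interaction with population as a block. Same-numbered arrays of the 2 regimes correlated at -0.24, -0.11 and -0.0078 in their deviations, so the pairing is one of number only.

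The interaction gave 0 to 7 calls with an array left out (7 without polygamy female 1) and 593 at an unadjusted p under 0.05. The median of level bin 1 less that of bin 10, -0.87, ranged from -1.22 to -0.10 with an array left out (the last without polygamy female 3). It was -0.46 after quantile normalization and -0.054 after cyclic loess. The bins were ranked anew in each of these settings. The male-limited class less all transcripts, -1.07, ranged from -1.62 to -0.46 (the last without polygamy female 3) and came to -0.071 with polygamy female 1 alone. That class was likewise drawn anew on the female arrays kept. The 506 large lower differences ranged from 308 (without monogamy female 1) to 845 (without polygamy female 2), and from 438 to 604 under other scalings. Without polygamy female 3 the median of all transcripts was 0.14 as deposited, 0.24 after centring and 0.02 after cyclic loess. Of 585 alternatives for single transcripts, 536 left the call and direction as they were, but most of these transcripts had no call to lose. The only calls were those of FBtr0073671, FBtr0087767 and FBtr0100343 without polygamy female 3. All 33 alternatives that lost a call were alternatives of these calls, so the count of 536 says little about how firm a call is. The value of CG45088/CG6191, -0.32, was between -1.09 (without polygamy female 3) and 0.13 (without polygamy female 1, adjusted p = 0.917, limma) with an array left out. With polygamy females 2 and 3 both left out, kis differed by -2.27, in a fit that takes the lone polygamy array to vary like the monogamy females. The causes were not tested.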
